A study of Sus scrofa with 20 samples.

Results

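The hair shaft is built from hard keratins, filament proteins of type I and type II that pair with each other, and from keratin-associated proteins, small proteins that crosslink those filaments into a stiff fibre. Their genes are switched on in an ordered way as cells leave the hair matrix at the base of the follicle and form the cortex and the outer cuticle of the shaft. The 8 genes described here are 3 type I hair keratin genes (KRT32, ENSSSCG00000017439; KRT35, ENSSSCG00000017438; KRT39, ENSSSCG00000017458), 2 type II hair keratin genes (KRT82, ENSSSCG00000000235; KRT85, ENSSSCG00000000240) and 3 keratin-associated protein genes (KRTAP11-1, ENSSSCG00000038131; KRTAP24-1, ENSSSCG00000021804; KRTAP27-1, ENSSSCG00000029297). They were taken by symbol, and all 8 were found among the 19280 gene identifiers of the deposited table. All 8 passed the filter on low counts.

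The data were RNA-seq estimated counts from 4 mm skin biopsies of 5 wild-type (WT) female Yorkshire pigs, 1 library per pig and site, 20 libraries in all. The sites were the sole side of the foot (volar), the upper side of the foot (dorsal), the flank and the snout. Pigs are named here by their age in months. Biopsies were whole skin, so a lower level may mean fewer hair follicles, fewer shaft cells in a follicle or less RNA per cell, and these cannot be told apart.

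Library numbers fell in separate ranges. A first set of 12 came from the 4-, 7- and 8-month animals and a second set of 8 from the 5- and 6-month animals. In the second set the deposited labels went against the expression of site genes, and its libraries are placed here by expression match. The label flank was read as sole, the label volar as snout, the label dorsal as flank and the label snout as upper foot. Genes of the hair lists and genes with a keratin or keratin-associated protein symbol were then left out. Rows without a symbol, and follicle genes outside those lists, stayed in. All 8 second-set libraries still matched those sites over the 2000 most variable genes. This match and the site genes below come from the same counts that placed the libraries, so neither is independent support. The best site had r = 0.77 to 0.87 and the next -0.02 to 0.72. Upper foot and flank were told apart less clearly. Libraries placed there had r = 0.80 to 0.84 for the best site and 0.62 to 0.72 for the next. Those placed as sole or snout had -0.02 to 0.0 for the next. Over 500 genes, the 6-month library labelled dorsal had 0.85 for flank and 0.81 for upper foot. ALX1, a regulator of facial mesenchyme, ran from 18.2 to 19.8 CPM in the 5 libraries placed as snout and reached at most 0.424 CPM in the others. EN1, a gene of ventral limb ectoderm, ran from 9.16 to 19.9 CPM in the 5 placed as sole and reached at most 3.36 CPM elsewhere. ALX1 and EN1 were read here for snout and sole only, not for upper foot against flank. Sites were compared within each set, between libraries as their labels group them, and all 20 libraries shared 1 estimate of the spread. First-set means hold no relabelled library, but their tests borrow spread from the second set. With the libraries of the first set only, the count of the 8 genes called fell from 8 to 5 in upper foot minus snout and from 5 to 1 in flank minus snout, and stayed at 8 in the 3 comparisons with sole. Levels over 5 pigs are descriptions. Total counts ran from 34077861 to 66906489 per library. Levels are CPM, counts relative to the library total, scaled by the trimmed mean of M-values (TMM). Levels are compared between libraries for 1 gene, not between genes, because transcript lengths were not used.

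The 8 genes were high in upper foot and flank, clearly lower in snout, and at or near 0 in sole. Summed over the 8 genes, the level ran from 814 to 2948 CPM in upper foot (median 2021), from 160 to 2756 CPM in flank (median 885), from 46.7 to 166 CPM in snout (median 142) and from 0.0389 to 0.746 CPM in sole (median 0.228). By median, each of the 8 genes followed the order upper foot, flank, snout, sole. Upper foot and flank overlapped for all 8 genes, and snout and sole overlapped for none. Flank and snout overlapped for KRT32, KRT35, KRT82, KRT85 and KRTAP24-1 and did not for KRT39, KRTAP11-1 and KRTAP27-1. Overlap between sites was not counted over all genes, so these counts are descriptions only.

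**Figure D1:**
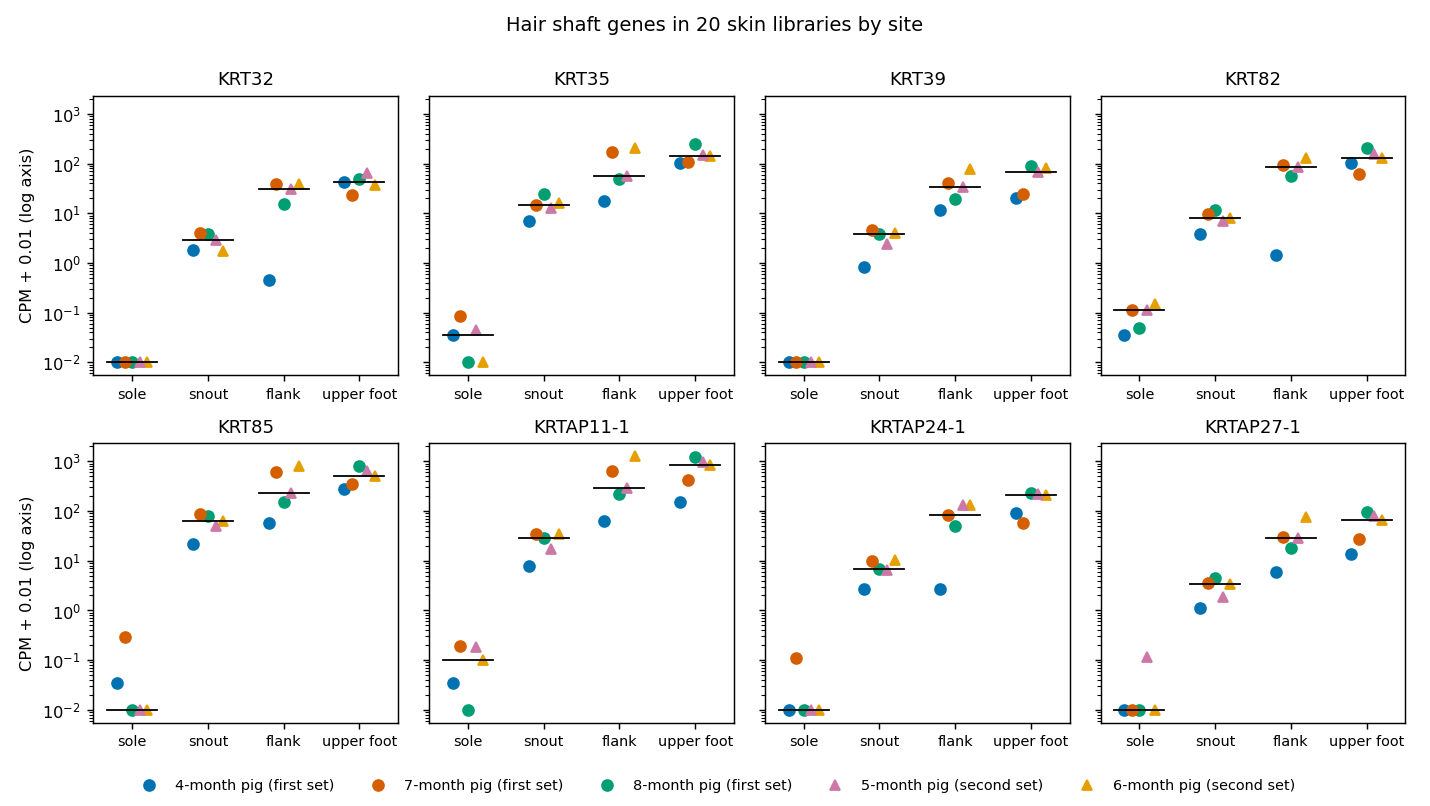
Level of each of the 8 hair shaft genes in 20 libraries (CPM plus 0.01, log axis), by matched site. Each point is 1 library, colours are pigs, circles the first set, triangles the second set, and bars the median of 5 pigs. All sole points lie below all snout points, and the 4-month flank point lies far below the other flank points for KRT32, KRT82 and KRTAP24-1.

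Among the type I genes, KRT32 encodes a keratin of the shaft cuticle in human follicles. In upper foot it stood at 42.3, 63.4, 36.6, 23.1 and 48.8 CPM in the pigs aged 4, 5, 6, 7 and 8 months. In flank, in the same order of pigs, it stood at 0.440, 30.9, 38.3, 39.5 and 15.5 CPM. The 4-month flank library stood apart, below every snout library as well as every other flank library. Snout held 1.78, 2.89, 1.76, 3.92 and 3.80 CPM, and no sole library had a KRT32 count.

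KRT35 encodes a type I keratin that appears early, in the hair matrix and the cells just above it. It ran from 103 to 245 CPM in upper foot (median 145), from 17.4 to 207 CPM in flank (median 56.7) and from 6.85 to 24.7 CPM in snout (median 14.9). Its flank minimum, in the 4-month pig, fell inside the snout range. Sole libraries held 5 KRT35 counts in all, with a highest level of 0.0772 CPM.

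KRT39 encodes a type I keratin of the later, more differentiated shaft. In the pigs aged 4, 5, 6, 7 and 8 months it reached 19.9, 68.5, 80.3, 23.9 and 91.4 CPM in upper foot. In flank it reached 11.6, 33.4, 76.8, 40.1 and 19.0 CPM. Snout libraries were lower than every flank library for this gene, at 0.811, 2.42, 3.96, 4.61 and 3.75 CPM, and sole had no count.

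Of the type II genes, KRT82 encodes a keratin of the shaft cuticle. It stood at 105, 156, 131, 62.7 and 206 CPM in upper foot of the pigs aged 4, 5, 6, 7 and 8 months. Flank held 1.44, 85.9, 133, 91.7 and 57.0 CPM in that order, so 4 of 5 flank libraries were above the whole snout range and the 4-month library was below it. Snout held 3.85, 6.86, 8.15, 9.72 and 11.5 CPM. All 5 sole libraries had at least 1 KRT82 count, at 0.0254 to 0.137 CPM.

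KRT85 encodes a type II keratin present from the matrix upward in cortex and cuticle, and a partner for several type I hair keratins. In upper foot it measured 283, 633, 516, 351 and 798 CPM in the pigs aged 4, 5, 6, 7 and 8 months. In flank it measured 58.4, 229, 808, 599.8 and 149 CPM. Snout held 21.7, 50.1, 63.7, 85.9 and 78.0 CPM, and only the 4-month flank library overlapped that range. In sole, 3 of 5 libraries had no KRT85 count and the highest, in the 7-month pig, was 0.283 CPM.

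KRTAP11-1 encodes a high-sulfur keratin-associated protein of the shaft. It stood at 155, 989, 837, 427 and 1226 CPM in upper foot of the pigs aged 4, 5, 6, 7 and 8 months. In flank it stood at 62.1, 289, 1282, 638 and 219.7 CPM. Snout was below every upper foot and flank library for this gene, at 7.89, 17.4, 34.8, 33.8 and 28.2 CPM. Sole libraries reached at most 0.180 CPM.

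KRTAP24-1 encodes a keratin-associated protein reported in the shaft cuticle. Upper foot held 92.0, 221, 209.9, 56.7 and 235 CPM in the same order of pigs. Flank held 2.69, 131, 134, 82.7 and 51.0 CPM, and as for KRT32 and KRT82 the 4-month library lay apart from the other 4. Snout held 2.72, 6.41, 10.3, 9.75 and 6.77 CPM. KRTAP27-1, a further member of the high-sulfur group, ran from 13.9 to 96.5 CPM in upper foot (median 64.9), from 5.86 to 76.8 CPM in flank (median 29.3) and from 1.11 to 4.54 CPM in snout (median 3.33). Each of these last genes had counts in only 1 of 5 sole libraries, KRTAP24-1 in the 7-month pig and KRTAP27-1 in the 5-month pig.

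Haired sites were set against sole to ask whether hairless foot skin holds any hair shaft transcript. All 8 genes were higher in upper foot than in sole in the first set, where 11.1% of the 15735 genes tested were called higher, and in the second set, where 22.1% were (edgeR quasi-likelihood test, Benjamini-Hochberg adjusted p under 0.05). All 8 were also higher in flank than in sole in both sets, against 17.3% and 24.2% of all genes. Snout minus sole again gave 8 of 8 in both sets, against 7.72% and 19.9%. The median log2 fold change over all genes tested lay between 0.00 and 0.08 in these 6 comparisons. The 8 genes were chosen with earlier results of these data known. They passed the filter through libraries of haired sites, as sole held few or no counts. Their calls against sole are therefore descriptions, not an independent test. The comparisons among the other sites below use the same chosen genes, so those calls are not independent tests either.

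Folds over sole were very large and rested on few sole counts. KRT32, KRT39 and KRTAP27-1 had no count in the 3 first-set sole libraries, and with a floor of 3 counts over the group they were at least 1646-fold, 1949.8-fold and 1992-fold higher in upper foot. In the same comparison the log2 fold change was 12.15 ± 1.26 (standard error, SE) for KRT35, 11.11 ± 1.43 for KRT82, 12.27 ± 1.37 for KRT85, 13.18 ± 1.52 for KRTAP11-1 and 11.90 ± 1.51 for KRTAP24-1, on 4, 7, 12, 8 and 4 sole counts. Each SE, here and below, is the absolute log2 fold change over the square root of the quasi-likelihood F statistic. Such an SE is rough where sole counts are few. By edgeR's quasi-likelihood test the adjusted p over all 8 genes ran from 1.13e-05 (KRT35) to 0.000503 (KRT32). Second-set sole libraries had no count of KRT32, KRT39, KRT85 or KRTAP24-1, and KRT85 and KRTAP24-1 were at least 9679-fold and 3635-fold higher in upper foot there. KRTAP27-1 had 3 counts there, a ratio of 1207 with a counting interval of 413 to 5854.

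The fold over sole was smaller from snout than from the other sites. With the all-zero genes at their bound, the median log2 fold over the 8 genes was 11.60 and 11.06 in upper foot, 10.26 and 10.49 in flank, and 7.49 and 6.56 in snout, for the first and second set. KRT32 was at least 137-fold and 39.2-fold higher in snout than in sole, and KRT39 at least 132-fold and 53.8-fold. These bounds and intervals cover counting error only. The calls against sole depended on the tool. DESeq2 called all 8 genes in all 6 comparisons. By limma-voom 0 of 8 were called for snout minus sole in either set. For flank minus sole it called 5 and 4, and for upper foot minus sole 6 and 4, in the first and second set. Without the 5-month or the 6-month library labelled flank (placed as sole), snout minus sole in the second set gave 4 or 5 of 8.

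The comparison with snout asked whether facial skin holds these transcripts at the level of trunk and foot skin. All 8 genes were higher in upper foot than in snout in the first set, against 4.21% of all genes called higher. Log2 fold changes ran from 2.95 ± 0.85 for KRT85 (edgeR adjusted p = 0.0407) to 4.69 ± 0.99 for KRTAP11-1 (edgeR adjusted p = 0.00695), with a median of 3.89. In the second set 6 of 8 were higher, against 2.59% of all genes, with log2 fold changes from 3.33 ± 1.06 for KRT85 to 5.13 ± 1.23 for KRTAP11-1. KRT32 (4.41 ± 1.28, edgeR adjusted p = 0.0606) and KRT85 (edgeR adjusted p = 0.0773) did not pass there. With the pig as a block KRT85 did pass (3.40, edgeR adjusted p = 0.0226), and DESeq2 called all 8.

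In flank minus snout, 5 of 8 genes were higher in the first set, against 6.81% of all genes called higher. KRTAP11-1 changed most, by 3.72 ± 0.94 on the log2 scale (edgeR adjusted p = 0.0146), followed by KRT39 (2.95 ± 0.76, edgeR adjusted p = 0.0216) and KRTAP24-1 (2.83 ± 0.88, edgeR adjusted p = 0.0431). KRT35 and KRTAP27-1 passed as well. KRT32 (2.55 ± 0.96), KRT82 (2.58 ± 0.87) and KRT85 (2.12 ± 0.83) did not, with edgeR adjusted p of 0.0966, 0.0560 and 0.0984. For the second set the count was 6 of 8, against 4.00% of all genes, led by KRTAP11-1 at 4.91 (edgeR adjusted p = 0.0208). There KRT32 and KRT85 missed the threshold, at edgeR adjusted p of 0.0727 and 0.0720, and KRT85 passed with the pig as a block (edgeR adjusted p = 0.0273).

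Single libraries moved these calls. Over all genes of the first set, leaving out 1 library gave 1027 to 1877 calls in upper foot minus snout, against 1766. Flank minus snout gave 1929 to 2759, against 2625. Calls over all genes also reached lower numbers in the second set. The counts below are therefore not read as a result about the 8 genes alone. Leaving out the 4-month flank library raised flank minus snout in the first set to 8 of 8 genes and the median log2 fold change from 2.57 to 3.15. Leaving out the 4-month snout library left 0 of 8 there and 5 of 8 in upper foot minus snout, and leaving out the 7-month flank library also left 0 of 8. Without the 8-month snout or the 7-month snout library 2 of 8 remained called in flank minus snout, and 3 of 8 without the 8-month flank library or without any 1 of the 4 second-set libraries placed as upper foot or snout. Upper foot minus snout in the second set, where a site then rests on 1 library assumed to vary like the others, fell to 0 of 8 without any of its 4 libraries. Flank minus snout there fell to 0 of 8 without either library placed as snout or without the 6-month library placed as flank, and to 3 of 8 without either library placed as upper foot.

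Skeletal muscle transcripts moved with the snout group in part of the libraries. The summed level of 11 muscle genes was 8831, 6922 and 4143 CPM in the 7-month, 6-month and 5-month snout libraries, 13.8 and 15.04 CPM in the 4-month and 8-month ones, and 12.5 to 39.2 CPM in the 15 libraries of the other sites. The part of muscle in the snout levels of the hair shaft genes was not tested. Without the 7-month snout library, 6 of 8 genes were called in upper foot minus snout and 2 of 8 in flank minus snout in the first set.

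Upper foot and flank did not separate. None of the 8 genes was called in upper foot minus flank in either set by edgeR, DESeq2 or limma-voom, and 0 of 8 had an unadjusted edgeR p under 0.05. Over all genes 0.362% and 0.00636% were called in either direction. The log2 fold changes ran from 0.83 (KRT85) to 1.49 (KRTAP24-1) in the first set, with a median of 1.01, and from 0.15 to 0.70 in the second, with a median of 0.41. For KRT85 the values were 0.83 ± 0.80 and 0.15 ± 0.97 (SE), so both no difference and a several-fold one lay within a few standard errors. Without the 4-month flank library the first-set median was 0.54.

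The size of each site difference was also tested between the sets. In the 3 comparisons among haired sites none of the 8 genes was called by edgeR's quasi-likelihood test, DESeq2 or limma-voom, 0 of 8 had an unadjusted edgeR p under 0.05, and 0% of all genes were called. First set minus second set, the difference ran from 0.50 to 0.92 on the log2 scale in upper foot minus flank, from -0.89 to -0.07 in upper foot minus snout and from -1.81 to -0.86 in flank minus snout, with standard errors of 1.08 to 1.46, so differences of several-fold lay within the error. Against sole, KRT32 and KRT39 had no sole count in either set, and KRT85, KRTAP24-1 and KRTAP27-1 had none in 1 of the sets, so no difference between sets can be read for these 5 genes. KRT35, KRT82 and KRTAP11-1 were not called there. Their standard errors of 3.72, 2.78 and 2.55 for snout minus sole are rough, because sole counts were few. Over all genes, 0.496%, 0.941% and 0.267% were called for upper foot, flank and snout minus sole. The sets differ in pigs, ages and library numbers together, and these cannot be told apart.

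**Figure D2:**
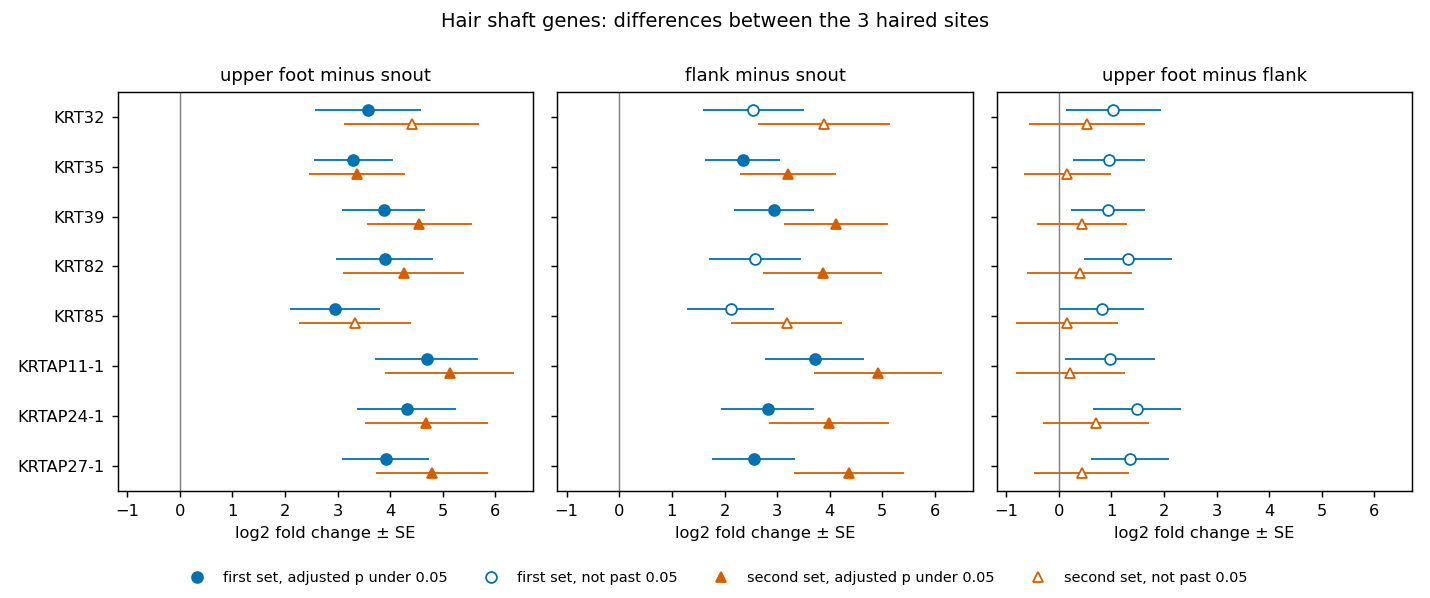
Log2 fold change of each hair shaft gene between the 3 haired sites, within each set (points, bars ± 1 SE; filled where the edgeR adjusted p is under 0.05). Upper foot and flank lie above snout by 2.12 to 5.13, and upper foot minus flank lies between 0.15 and 1.49 with no filled point.

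The 8 genes did not move in a fixed proportion. To compare the make-up of the shaft transcripts, each gene's counts were divided by those of KRT85 in the same library, in the 15 haired libraries. KRTAP11-1 stood at 0.348 to 0.546 counts per KRT85 count in snout, with a median of 0.363. It stood at 1.06 to 1.59 in flank and at 1.22 to 1.62 in upper foot of 4 pigs, but at 0.545 in upper foot of the 4-month pig, just inside the snout range. KRT39 was lower in every snout library, at 0.0373 to 0.0621, than in flank, at 0.0668 to 0.199, and upper foot, at 0.0682 to 0.156, which overlapped each other. The ratio of KRT35 to KRT85 stayed within 0.174 to 0.365 in all 15 libraries, with overlap between all 3 sites. These ratios are descriptions and were not tested.

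Of the 5 flank libraries, that of the 4-month pig was the lowest for all 8 genes, and its composition differed from the rest. Relative to KRT85, KRT32 stood at 0.00754 in it against 0.0276 to 0.149 in the other 14 haired libraries. KRT82 stood at 0.0246 against 0.113 to 0.383, and KRTAP24-1 at 0.0460 against 0.0868 to 0.573. S100A3, a calcium-binding protein gene known from the shaft cuticle, stood at 0.0456 against 0.206 to 1.08. The other members were not low in that library relative to KRT85: KRT35 was at 0.298, KRTAP11-1 at 1.06 and KRTAP27-1 at 0.100, inside the range of the other 14, and KRT39 at 0.199, above their highest value of 0.156. S100A3 was named after its value was seen to follow the pattern. Genes of the same library that were also below all 14 others relative to KRT85 were VSIG8 (0.196 against at least 0.275), PADI3 (0.0286 against at least 0.0359) and KRT36 (0.0183 against at least 0.0332). KRT40 (0.0302, with the others from 0.0237) and DSG4 (0.410, with the others at 0.182 to 0.561) were not. KRT39 and KRT40 are, like KRT32 and KRT82, also known from the cuticle.

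**Figure D3:**
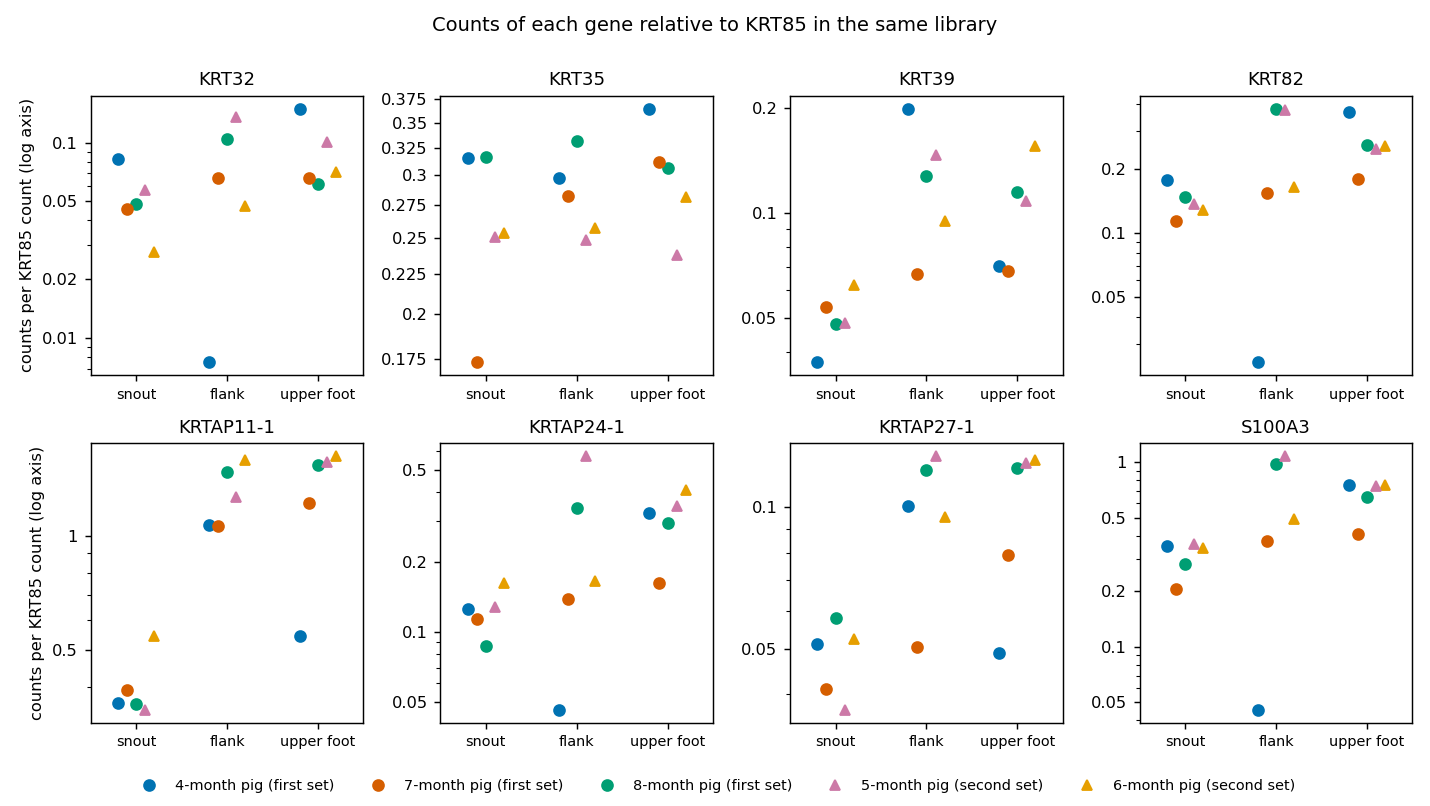
Counts of 7 hair shaft genes and S100A3 per KRT85 count in the same library (log axis), for 15 libraries of snout, flank and upper foot; each point is 1 library, coloured by pig. The 4-month flank point (blue) lies below all other points for KRT32, KRT82, KRTAP24-1 and S100A3 and within or above them for the others, and KRTAP11-1 is at most 0.546 in snout.

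Pigs differed in the same direction across much of the group. The 4-month pig had the lowest level of 5 genes in upper foot, of 8 in flank and of 7 in snout. The 8-month pig had the highest level of 7 of 8 genes in upper foot, and the 6-month pig of 7 of 8 in flank. Each pig gave 1 library per site, so genes that vary together there are not repeated evidence. Such extremes were not counted over all genes. Age, animal and, in part, set go together, so no age trend was tested. Over the 10 upper foot and flank libraries, Pearson's r between pairs of the 8 genes (log2 of CPM plus 0.5) ran from 0.71 (KRT32 with KRT39) to 0.99 (KRT35 with KRT85), with a median of 0.87 over 28 pairs. Without the 4-month flank library the lowest was 0.55 (KRT32 with KRTAP11-1) and the median 0.80. These libraries share pigs and sites, and the correlations are descriptions.

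Other hair keratin genes were looked up from a list of 12, of which 3 matched a row by symbol (KRT36, KRT40 and KRT84). KRT40, a type I keratin gene next to KRT39 in the pig RefSeq gene order, was called in the same direction as the 8 genes in all comparisons with sole or snout but 1. Its log2 fold change in upper foot minus sole was 7.64 ± 1.15 (edgeR adjusted p = 0.000219) in the first set and 9.10 ± 1.62 (edgeR adjusted p = 0.000511) in the second, and it was higher in upper foot and in flank than in snout in both sets. Snout minus sole gave 3.22 ± 1.05 in the first set, which did not pass (edgeR adjusted p = 0.0530), and 4.51 ± 1.64 in the second (edgeR adjusted p = 0.0439). KRT36, the neighbour of KRT35, and KRT84, the neighbour of KRT82, had other patterns. KRT36 is known from nail as well as hair, and KRT84 from nail and tongue papillae.

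In the sole library of the 5-month pig (label flank), KRT36 reached 170.0 CPM and KRT84 80.0 CPM, while no member of the 8 exceeded 0.174 CPM there. The other 4 sole libraries held 0 to 3.32 CPM of KRT36 and 0.129 to 4.29 CPM of KRT84. For KRT36 the 5-month sole level was above every haired library, the highest of which was 54.3 CPM. KRT84 was also high in the upper foot of the 7-month pig, at 74.7 CPM against 2.61 to 21.9 CPM in the other upper foot libraries, and low in all flank libraries, at 0.185 to 1.48 CPM. In the second set KRT84 was lower in flank than in sole (-5.20 ± 1.70, edgeR adjusted p = 0.0215), a difference that includes the 5-month sole library. In the first set KRT84 was higher in upper foot than in sole (5.23 ± 1.41, edgeR adjusted p = 0.0127), as was KRT36 (5.11 ± 1.62, edgeR adjusted p = 0.0300).

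**Figure D4:**
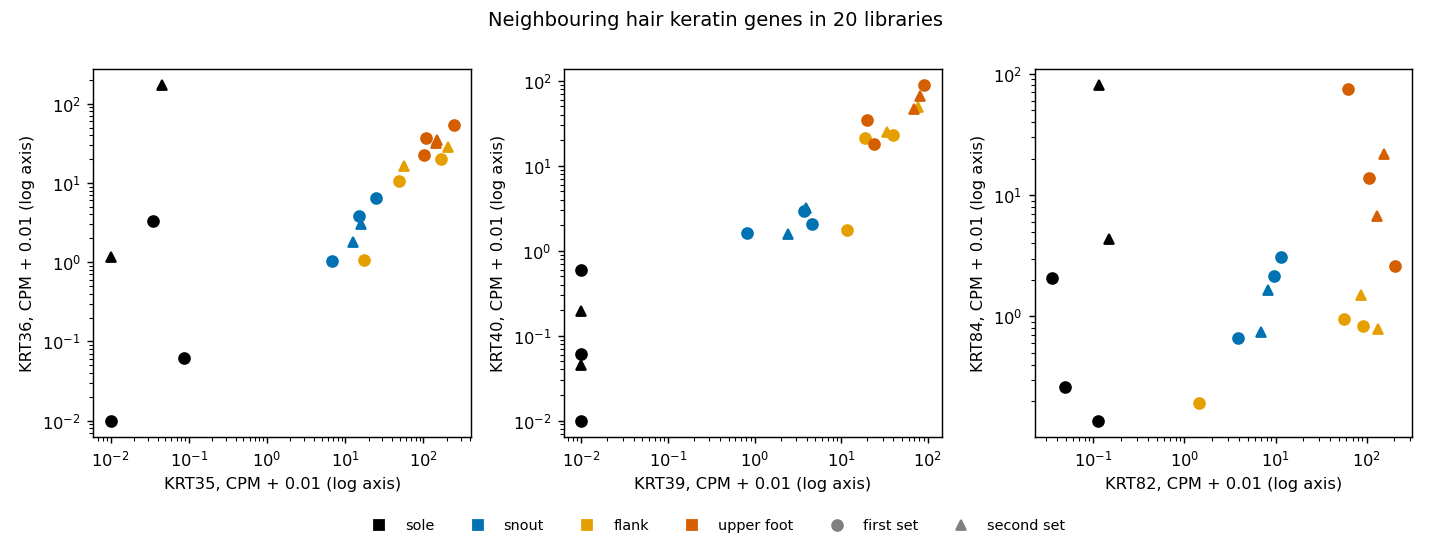
Level of 3 neighbouring pairs of hair keratin genes in 20 libraries (CPM plus 0.01, both axes log), coloured by matched site, circles first set and triangles second set. KRT40 rises with KRT39, whereas 1 sole library (black triangle) lies at 170.0 CPM of KRT36 and 80.0 CPM of KRT84 with KRT35 and KRT82 near 0.

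Further genes of the shaft were read from a list of 7, of which 6 had a row. In upper foot minus sole 5 rose and 1 fell in each set. Over all genes, 11.1% and 22.1% were called higher and 15.4% and 19.6% lower. VSIG8, a membrane protein gene of the shaft cuticle, rose by 12.98 ± 1.19 on the log2 scale in the first set (edgeR adjusted p = 3.82e-06), from 0.0254 to 0.139 CPM in all 5 sole libraries to 127 to 467 CPM in upper foot. DSG4, the desmosomal cadherin of the hair cortex, rose by 7.42 ± 0.91 (edgeR adjusted p = 4.47e-05) and S100A3 by 9.29 ± 1.29 (edgeR adjusted p = 0.000117). CRYM went the other way in both sets and was at 52.4 to 114 CPM in sole against 7.64 to 12.9 CPM in upper foot. DSG4 and S100A3 were higher in upper foot and in flank than in snout in both sets, as KRT40 was.

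Of 14 regulators of shaft differentiation on the list, 5 were higher and 3 lower in upper foot than in sole in the first set, where 11.1% of all genes were called higher and 15.4% lower. In the second set 5 were higher and 2 lower, against 22.1% and 19.6%. GATA3 rose by 2.27 (edgeR adjusted p = 0.000333), MSX2 by 1.73 (edgeR adjusted p = 0.00792), HOXC13, a homeobox gene known to act on hair keratin promoters, by 2.10 (edgeR adjusted p = 0.00877) and LEF1, a transcription factor of Wnt signalling in the hair matrix, by 1.99 (edgeR adjusted p = 0.00974). Unlike the 8 shaft genes, each of them was present in sole, HOXC13 at 1.57 to 4.57 CPM and LEF1 at 3.93 to 8.01 CPM. HOXC13 was lowest in snout, at 0.922 to 1.51 CPM, and was higher in flank than in snout by 2.28 (edgeR adjusted p = 0.00977) in the first set and by 3.62 (edgeR adjusted p = 0.00491) in the second. MSX2 did not follow the order of the shaft genes: snout held 28.5 to 36.6 CPM, inside the flank range of 7.18 to 52.6 CPM.

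The inner root sheath, the layer that encases the growing shaft, was measured by 9 genes. All 9 were higher in upper foot and in flank than in sole in both sets, with 9 and 8 of 9 higher in snout than in sole. Over all genes, 11.1% and 22.1% were called higher in upper foot, 17.3% and 24.2% in flank, and 7.72% and 19.9% in snout. Upper foot minus snout gave 6 and 2 of 9, against 4.21% and 2.59% of all genes called higher, and flank minus snout 2 and 4 of 9, against 6.81% and 4.00%. Examples were KRT74, at 488 to 1236 CPM in upper foot and 0.380 to 1.00 CPM in sole, and KRT25, at 1996 to 5396 CPM and 1.21 to 10.5 CPM. The summed level of the 9 genes ran from 5385 to 13912 CPM in upper foot, 433 to 17915 CPM in flank, 310 to 1167 CPM in snout and 3.03 to 33.2 CPM in sole. Counts of the 8 shaft genes per inner root sheath count were close across haired sites, with medians of 0.187 in upper foot, 0.174 in flank and 0.163 in snout. The range over those 15 libraries was 0.122 to 0.369, the highest in the 4-month flank library. In sole the ratio was 0.00799 to 0.0848, on few counts. This ratio weights KRT85, KRT35 and KRTAP11-1 most, and without KRT85 and KRT35 the medians were 0.107 in upper foot and 0.0598 in snout. Every snout library was then lower, at 0.0534 to 0.0729, than upper foot, at 0.0794 to 0.144, and flank, at 0.0938 to 0.194. The closeness across these sites therefore held only with KRT85 and KRT35 included.

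**Figure D5:**
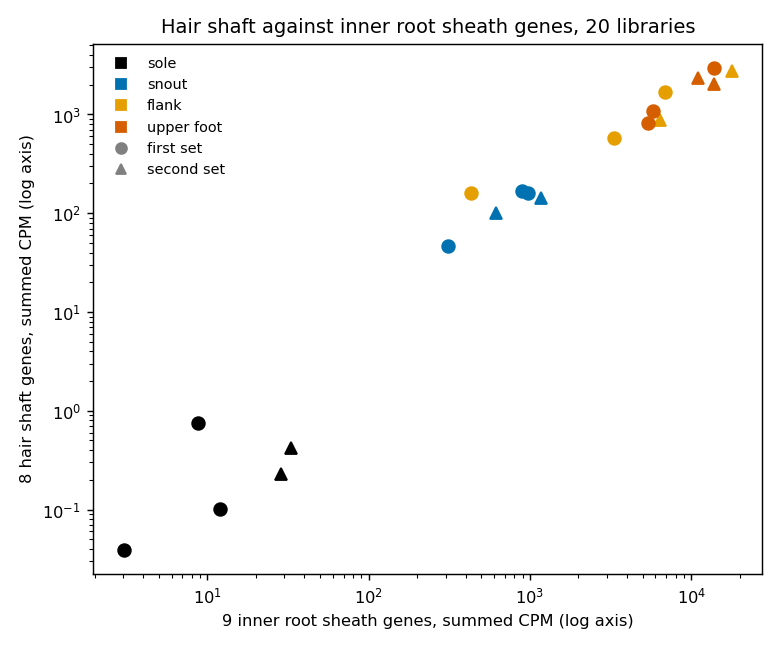
Summed level of the 8 hair shaft genes against that of 9 inner root sheath genes in 20 libraries (CPM, both axes log), coloured by matched site, circles first set and triangles second set. The 15 haired libraries lie along 1 band from snout (46.7 to 166 CPM of shaft genes) to upper foot and flank, with the 4-month flank library at its upper edge, and the 5 sole libraries lie apart at the lower left.

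Outer root sheath and stem cell genes, as a sum, were not absent from sole in the same way. Of 9, 6 and 7 were higher in upper foot than in sole in the first and second set, against 11.1% and 22.1% of all genes. LGR5, KRT75, FOXC1 and SOX9 were among the called genes of the list. The summed level of the 9 ran from 64.1 to 88.9 CPM in sole against 246 to 309 CPM in upper foot. KRT75 by itself was nearly absent from sole, at 0.0195 to 0.488 CPM against 84.8 to 166 CPM in upper foot. Of 10 dermal papilla genes, 1 was higher and 1 lower in the first set, shares near those of all genes (11.1% and 15.4%), and 4 were higher in the second, against 22.1%. CORIN was higher in both. In upper foot minus sole, 15.4% and 19.6% of all genes were called lower and 11.1% and 22.1% higher. Of 5 markers of the surface epidermis, 4 were lower and 1 higher in upper foot than in sole in both sets. Their summed level was 243564 to 576358 CPM in sole and 10626 to 26325 CPM in all other sites, and its part in the low sole levels of the 8 genes was not tested. TMM-scaled CPM of this size are not plain shares of a library. Other skin cell types differed between sites as well. The summed level of 7 melanocyte genes ran from 24.4 to 51.6 CPM in sole, 62.5 to 86.3 CPM in upper foot, 55.7 to 81.2 CPM in flank and 29.0 to 34.6 CPM in snout, so upper foot and flank lay above sole and snout. That of 7 sebaceous gland genes ran from 682 to 960.0 CPM in sole, 504 to 1991 CPM in upper foot, 458 to 9313 CPM in flank and 256 to 823 CPM in snout. That of 6 sweat gland genes ran from 545 to 5400.1 CPM in sole, 195 to 320.4 CPM in upper foot, 263 to 421 CPM in flank and 68.6 to 563 CPM in snout. The part of these cell types in the levels of the 8 genes was not tested.

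Genes with the pattern most like the mean of the 8 were ranked by Pearson's r over the 20 libraries (log2 of CPM plus 0.5). Outside the hair lists and the keratin families these were VTCN1 and GPRC5D (r = 0.99 each), ACTBL2, CALHM4 and ACSM3 (0.97 each), and RTKN2, SHISAL2B and ALDH1A1 (0.96 each). GPRC5D, a receptor gene known from hair follicles, stood at 83.1 to 350 CPM in upper foot, 34.2 to 378 CPM in flank, 3.51 to 18.4 CPM in snout and 0.731 to 1.39 CPM in sole. Inside those lists the closest were KRT74, KRT75, KRT25 and TCHHL1 (0.99 each) and S100A3 (0.98). TCHHL1, a trichohyalin-like gene, had no count in any sole library and 31.0 to 154 CPM in upper foot. The libraries share pigs and sites, the sole libraries set much of each r, and no p is given.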

How the data were processed

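Libraries were TruSeq stranded mRNA preparations of RNA from biopsies kept in RNAlater, per the labels' protocols. The authors deposited 1 table of estimated counts by Ensembl gene identifier. The submitters' processing notes name Salmon. Version, build and annotation release were not given in the sources used here, and no coordinates are printed. Of the values, 42.2% were not whole (further than 1e-09 from a whole number), and the expected counts were rounded to whole numbers before testing. KRT39 and the 3 keratin-associated protein genes held whole numbers in all 20 libraries, while KRT32, KRT35, KRT82 and KRT85 did in 3 to 5, so their counts were in part divided among similar transcripts and are less certain. No other keratin-associated protein gene matched by symbol. Symbols came from the supplied gene name table (14821 of 19280 identifiers matched), and gene order from RefSeq Sscrofa11.1.

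The members and gene lists were chosen with earlier results of these data known. Tests used edgeR 4.0.16 in R 4.3.3 (robust quasi-likelihood F test, TMM factors 0.570 to 1.291, filterByExpr with a count minimum of 10 and total minimum of 15). All 20 libraries entered 1 fit with 8 means (deposited label within set) and 12 residual degrees of freedom. Benjamini-Hochberg adjustment ran over 15735 genes at 0.05. Genes outside the 8 were named as up to 4 per list with the smallest adjusted p in upper foot minus sole of the first set, and as the 8 and 5 genes most like the members. KRT36, KRT84, PADI3 and CRYM, and S100A3 where it is set against KRT85, were added for contrast.

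Libraries of 1 pig are paired by animal. Within a pig, deviations from the group means correlated with r of 0 to 0.43 (first set, median 0.21) and 0.11 to 0.43 (second set, median 0.31). The pig as a block was an alternative, as were DESeq2 1.42.0, limma-voom (limma 3.58.1), other scalings and filters, smaller sets of libraries, a fit by matched site, and leaving out each library. The tests were checked on simulated counts.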

Additional observations from a re-analysis of the deposited data

Results flagged for a closer look

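Among 32 groups of 5 libraries (8 genes at 4 sites), 6 held 1 library far from the other 4 on the log2 scale of CPM plus 0.5. The rule flags about 5% of independent, roughly normal groups by chance. These groups share libraries, their genes vary together, and zeros shape the sole groups. The count of 6 can therefore not be set against that rate. The 3 flags in sole rest on few counts.

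The 4-month flank library was far below the other flank libraries for KRT32 (0.440 CPM), KRT82 (1.44 CPM) and KRTAP24-1 (2.69 CPM). These are the same 3 members that were low relative to KRT85 in that library.

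In sole, KRT85 (0.283 CPM) and KRTAP24-1 (0.103 CPM) stood apart in the 7-month pig, on 11 and 4 counts. KRTAP27-1 (0.105 CPM) stood apart in the 5-month pig, on 3 counts.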

How the results depend on the processing

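Depth limited the sole values, where 3 counts correspond to 0.0584 to 0.137 CPM per library. The calls of the 8 genes against sole depended on the tool. Where edgeR called 8, limma-voom called 6 and 4 (upper foot), 5 and 4 (flank) and 0 and 0 (snout), first and second set. Flank minus snout in the first set, 5 of 8, gave 2 with limma-voom, 3 without a count filter, 1 with the libraries of that set only, 0 with the libraries of both groups only and 8 by matched site with the set as a term. Upper foot minus snout in the first set, 8 of 8, gave 5 with the libraries of that set only and 4 with both groups only. Leaving out 1 library gave 4 to 8 for snout minus sole in the second set, 5 to 8 and 0 to 8 for upper foot minus snout in the first and second set, and 0 to 8 for flank minus snout in both; counts against sole in the other 5 comparisons stayed at 8, and upper foot minus flank stayed at 0. The shaft to inner root sheath ratio without KRT85 and KRT35 had medians of 0.107 in upper foot and 0.0598 in snout. With the replicate block (pig), KRT32 lost its call in snout minus sole of the second set (edgeR adjusted p = 0.0599), KRT85 gained the calls given above, and no count of members moved by over 1.5 times.

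Values that turned direction were all uncalled, in upper foot minus flank. Leaving out 1 library gave log2 fold changes of -0.10 to 1.55 for KRT39 and -0.073 to 2.09 for KRTAP11-1 in the first set, the lowest without the 8-month upper foot library. For the second set the ranges were -0.49 to 1.36 for KRT35, -0.046 to 1.14 for KRT39, -0.49 to 1.31 for KRT85, -0.49 to 1.64 for KRTAP11-1 and -0.10 to 1.27 for KRTAP27-1, the lowest without the 5-month library labelled dorsal. KRT85 was at -0.02 without the 5-month library labelled snout. Median-of-ratios and upper-quartile scaling, a filter of 1 CPM in 3 libraries and leaving out the 20 most abundant genes kept direction and call in 96 of 96 member results each. Upper-quartile scaling moved the median of all genes by up to 0.123.

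The number of genes called over the whole table moved more. Upper foot minus flank called 57 and 1 genes in the first and second set, against 334 and 109 with DESeq2, 115 and 26 with limma-voom, 125 and 4 with the block, 20 and 6 with the libraries of that set only, 16 and 0 with both groups only, and 217 by matched site. By matched site the other comparisons called 7474, 8397, 6067, 3389 and 4413 genes, against 4178, 5590, 2402, 1766 and 2625 (first set) and 6570, 7095, 5734, 1154 and 1656 (second set). With both groups only, flank minus sole, snout minus sole and flank minus snout in the first set called 3207, 1305 and 1096, and upper foot minus snout in the second 1946 (DESeq2 1793). Differences between sets against sole, at 78, 148 and 42 genes, gave 880, 966 and 719 with DESeq2, 0, 38 and 0 with limma-voom and 252, 342 and 195 with the block, and 94 without a count filter for flank. The causes were not tested.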
